A study of Mus musculus with 12 samples.

Results

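The effect of SIRT7 loss was examined in male (XY) mouse embryonic fibroblasts, primary connective-tissue cells grown from embryos and abbreviated MEFs. The members were the 6 male libraries of the series, taken by their labels from 12 libraries in all: 3 wild-type (WT) and 3 SIRT7 knockout (KO). All cells were of the C57BL6 strain, and the other 6 libraries were female MEFs of the same 2 genotypes, which enter the shared estimate of spread in the model and whose own differences are set beside the male ones. The libraries were made from polyA-selected RNA, and no treatment is named in the labels. The sources used here do not give the deleted part of Sirt7, the way the allele was made, the age of the embryos or the passage of the cells. No label says that replicates came from separate embryos or cultures, so a p-value here reflects only how these libraries vary, and that variation may be technical.

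SIRT7 is an NAD-dependent deacylase of the sirtuin family that is concentrated in the nucleolus. It removes acetyl groups from histone H3 at promoters and from other nuclear proteins, and it is best known as a positive factor for RNA polymerase I, the enzyme that transcribes ribosomal DNA. Roles in ribosome production, protein folding stress and lipid metabolism have also been described, mainly in liver and in cultured cells. The polymerase I, stress response and lipid genes are therefore described here along with the collagens and other matrix genes that fibroblasts make in quantity.

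The male libraries held 41989269 to 46031948 counts. Of 24421 genes listed, 15613 had enough counts for a test. In the male libraries Xist, which coats the inactive X chromosome of female cells, was at 58 to 80 counts (20603 to 29505 in female libraries). Ddx3y, Kdm5d, Uty and Eif2s3y, all on the Y chromosome, were each at 1037 to 3982 counts in males and 0 to 14 in females, which matches the sex label of every male library. All 10 fibroblast markers were measured, with a summed level of 8990 to 10500 CPM in WT and 12100 to 14600 CPM in KO libraries, where CPM is the count scaled to a common library size. All 9 tested epithelial markers had a log2 change below 0 (52.1% of all tested genes did), with a median of -1.15. Their summed level was 73.6 to 125 CPM in WT and 44 to 67.1 CPM in KO libraries, and none of them was called. Of 8 tested glial markers 6 were below 0, with a median of -0.81 and sums of 21.9 to 50.1 CPM in WT and 15.5 to 29.3 CPM in KO libraries. In these bulk libraries, fewer cells of a type and less RNA per cell cannot be told apart.

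Sirt7 itself was at 27.6, 25.3 and 34.6 CPM in WT libraries 1, 2 and 3, and at 1.82, 1.58 and 1.95 CPM in KO libraries 1, 2 and 3. The groups were far apart, and every KO library kept 71 to 82 counts of the gene. The level fell by 4.03 ± 0.16 on the log2 scale (SE), a level 16.4-fold lower, with an adjusted p of 8.04e-07 in edgeR's quasi-likelihood test with Benjamini-Hochberg adjustment. Of the other 6 sirtuin genes none was called. Sirt6, a chromatin-bound relative, was at 24.8, 30.1 and 28.8 CPM in WT and at 31.6, 33.6 and 39.6 CPM in KO libraries, without overlap, and its log2 change of 0.32 ± 0.10 had an adjusted p of 0.457. The remaining 5 had log2 changes between -0.14 and 0.17.

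Across the transcriptome, 3 genes of 15613 tested (0.0192%) passed an adjusted p of 0.05, and all 3 lay within a short stretch of chromosome 11. Sirt7 and Pcyt2 fell (2 genes, 0.0128%) and Fam195b rose (1 gene, 0.0064%). Fitted to the 6 male libraries alone, Sirt7 passed, while Pcyt2 had an adjusted p of 0.192 and Fam195b one of 0.378 in edgeR. The median log2 change over all tested genes was -0.01, and the 5th and 95th percentiles were -0.68 and 0.64. A log2 change of 1 or more in either direction was measured for 685 genes, so large differences between the means of 3 libraries were common without passing the test. With DESeq2's Wald test, the tool that the submitters' processing notes name, 136 of 13187 genes passed (1.03%), 104 of them higher in KO (0.789%) and 32 lower (0.243%). The count of called genes thus depends strongly on the tool, and the DESeq2 result is given below beside the genes it concerns. X-linked genes had a median log2 change of 0.02 (537 genes) and autosomal genes one of -0.01 (15072 genes).

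**Figure D1:**
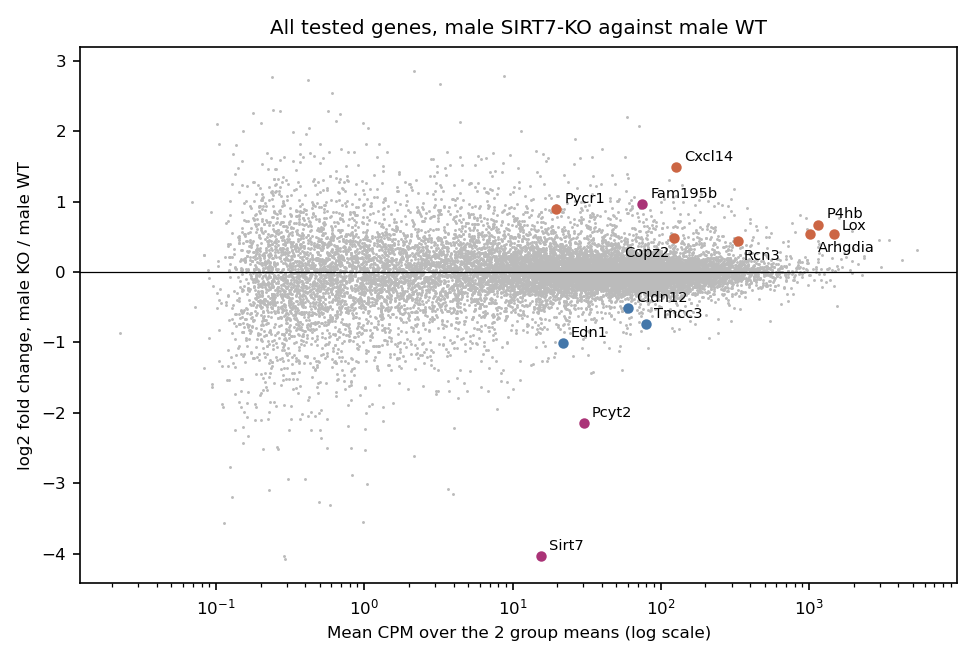
Each grey point is 1 of the 15613 tested genes, with the mean of the WT and KO group means in CPM on a log axis and the log2 fold change of male KO over male WT on the vertical axis. Purple points are the 3 genes past an adjusted p of 0.05 (Sirt7, Pcyt2 and Fam195b), orange and blue points are other named genes with higher or lower values in KO, and the grey cloud widens below 10 CPM.

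The 3 called genes lay close together. Pcyt2 encodes the enzyme that makes CDP-ethanolamine, the rate-limiting step of phosphatidylethanolamine synthesis by that route. In GRCm38 coordinates it spans chromosome 11, 120610087 to 120617936, on the minus strand, and its annotated start is 435 bases from the near end of Sirt7, which spans 120618372 to 120625240 on the same strand. Pcyt2 was at 42.4, 56.9 and 48.0 CPM in WT and at 9.16, 9.59 and 14.4 CPM in KO libraries, so that the highest KO library was well below the lowest WT library. It fell by 2.15 ± 0.25 on the log2 scale, 4.44-fold, with an adjusted p of 0.025 in edgeR.

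Fam195b, named Mcrip1 in the GENCODE annotation, encodes a protein that binds the CtBP corepressor and is regulated by MAP kinase. It lies 68.64 kb from Sirt7 at 120542888 to 120549727, also on the minus strand. It was at 48.5, 55.1 and 48.8 CPM in WT and at 115, 92.3 and 90.5 CPM in KO libraries. The groups did not overlap, and the gene rose 1.96-fold, a log2 change of 0.97 ± 0.11 with an adjusted p of 0.015 in edgeR.

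The genes between and beside these had values on both sides of 0. P4hb, which encodes protein disulfide isomerase and the beta subunit of the collagen prolyl 4-hydroxylase, was at 974, 801 and 894 CPM in WT and at 1590, 1340 and 1330 CPM in KO libraries. Arhgdia, which encodes an inhibitor of small GTPase activation, was at 876, 753 and 836 CPM in WT and at 1410, 1100 and 1090 CPM in KO libraries. Both genes were higher in all 3 KO libraries, and KO library 1 was the highest for each. Their log2 changes were 0.67 ± 0.09 (P4hb, edgeR adjusted p 0.061) and 0.54 ± 0.11 (Arhgdia, edgeR adjusted p 0.438), and both passed in DESeq2.

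Between Arhgdia and Pcyt2, the genes Alyref and Anapc11 had log2 changes of -0.15 ± 0.13 and 0.05 ± 0.10 with overlapping groups. The sign of the Anapc11 change turned without KO library 1, to -0.04. On the other side of Sirt7, Mafg, a small Maf transcription factor that overlaps Sirt7 by 124 bases, had a log2 change of -0.22 ± 0.08. Both genes lie on the minus strand, so reads in the shared bases cannot be assigned to 1 of them.

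Pycr1, which encodes a mitochondrial enzyme of proline synthesis, lies next, 10.47 kb from Sirt7. It was at 12.6, 16.6 and 12.2 CPM in WT and at 26.5, 23.7 and 26.7 CPM in KO libraries. The groups did not overlap, and the log2 change was 0.89 ± 0.18 (edgeR adjusted p 0.389, DESeq2 adjusted p 0.00177).

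Female KO libraries, labelled with the same genotype, give a second set of cells. The female log2 changes were -3.85 ± 0.16 for Sirt7, -2.16 ± 0.25 for Pcyt2, 0.91 ± 0.11 for Fam195b, 0.58 ± 0.09 for P4hb and 0.57 ± 0.11 for Arhgdia. Each had the male direction and nearly the male size. In edgeR's female contrast Sirt7, Pcyt2 and Fam195b passed, with adjusted p of 1.19e-06, 0.024 and 0.024. P4hb and Arhgdia did not pass there (0.292 and 0.635). That contrast shares its estimate of spread with the male one. The female value for Pycr1 was -0.20 ± 0.17, on the other side of 0 from the male one. The difference between the male and female changes of Pycr1 had an unadjusted p of 0.00113 and an adjusted p of 0.778 in edgeR, so that it did not pass the test over all genes.

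**Figure D2:**
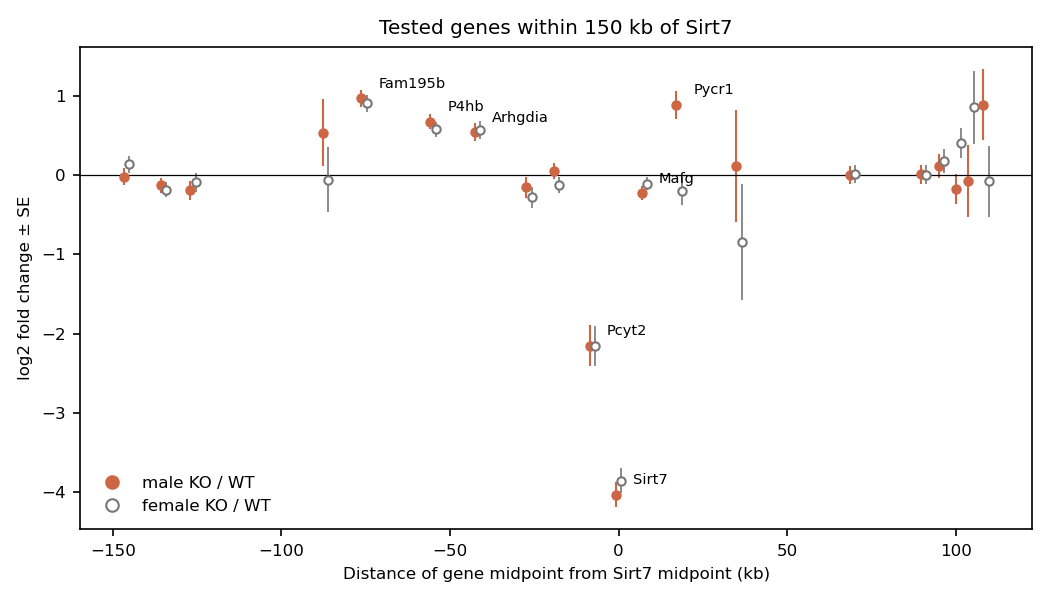
Points show the log2 fold change of KO over WT, with its SE, for the 20 tested genes within 150 kb of Sirt7, against the distance of the gene's midpoint from that of Sirt7 in kb. Filled points are male and open points female libraries. Sirt7 and Pcyt2 lie far below 0 in both sexes, Fam195b, P4hb and Arhgdia lie above 0 in both, and Pycr1 lies above 0 in males (0.89) and below in females (-0.20).

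Genes further along the chromosome were counted by distance. Over all tested genes, 9.95% had an unadjusted p below 0.05 in edgeR. Among the 19 tested genes within 0.15 Mb of Sirt7, itself left out, 6 did (31.6%), and from 0.15 to 1 Mb 8 of 35 did (22.9%). The share was 5.26% from 1 to 5 Mb and 9.18% from 5 to 20 Mb, below the share of all genes in both. The 11 tested neighbours within 150 kb but outside the run from Fam195b to Pycr1 had log2 changes of -0.19 to 0.89 and a lowest adjusted p of 0.53.

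The 8 genes between 0.15 and 1 Mb were Baiap2, Ccdc137, Dus1l, Narf, Ogfod3, Rab40b, Slc16a3 and Slc38a10, named after their values were seen. Slc16a3, which encodes the lactate exporter MCT4, was at 20.2, 21.3 and 19.1 CPM in WT and at 34.4, 37.5 and 41.7 CPM in KO libraries. Its groups lay well apart, and its log2 change was 0.90 ± 0.22 (edgeR adjusted p 0.447, DESeq2 adjusted p 0.021). In females Slc16a3 had a log2 change of -0.34.

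Pcyt2 belongs to a pathway with several other members, which allows its change to be set beside theirs. The ethanolamine branch has 4 measured genes, and all 4 had a log2 change below 0, against 52.1% of all tested genes. Ept1, the phosphotransferase that completes phosphatidylethanolamine, was at 89.5, 83.2 and 82.8 CPM in WT and at 75.7, 78.8 and 76.0 CPM in KO libraries, with a log2 change of -0.15 ± 0.07 (adjusted p 0.502 in edgeR). Etnk1, the ethanolamine kinase, was at 75.9, 69.3 and 71.4 CPM in WT and at 63.1, 67.4 and 66.2 CPM in KO libraries, with a log2 change of -0.14 ± 0.07. Both had separate groups, with differences far smaller than that of Pcyt2, and neither passed the test.

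Among the 5 genes of the parallel choline branch, log2 changes ran from -0.21 (Chka, choline kinase) to 0.94 (Pcyt1b, which makes CDP-choline). Over all 16 genes of phosphatidylethanolamine and phosphatidylcholine synthesis the median was -0.08 (-0.010 without WT library 3), and Pcyt2 was the only one called.

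Outside chromosome 11 near Sirt7, the genes of smallest p with separate groups and higher values in KO were led by Copz2, Rcn3 and Lox. Copz2, a subunit of the COPI vesicle coat on the same chromosome, was at 93.8, 102 and 109 CPM in WT and at 144, 136 and 148 CPM in KO libraries, a log2 change of 0.48 ± 0.06 (edgeR adjusted p 0.0518, DESeq2 adjusted p 1.41e-09). Rcn3, a calcium-binding protein of the endoplasmic reticulum (ER), was at 293, 272 and 275 CPM in WT and at 408, 364 and 368 CPM in KO libraries, a log2 change of 0.44 ± 0.06 (edgeR adjusted p 0.0745). Lox, the lysyl oxidase that crosslinks collagen, was at 1100, 1280 and 1190 CPM in WT and at 1730, 1830 and 1620 CPM in KO libraries, a log2 change of 0.54 ± 0.08 (edgeR adjusted p 0.0805). All 3 missed the edgeR threshold and passed in DESeq2. Separate groups alone are common, since the 3 KO libraries lay beyond the 3 WT libraries for 12.8% of all tested genes (6.21% above and 6.56% below).

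The next genes in that direction were Tmem176b (0.66 ± 0.11) and Tmem176a (0.74 ± 0.14), a pair of neighbouring membrane protein genes, Cd248 (0.46 ± 0.08), a stromal surface glycoprotein, Apol6 (1.25 ± 0.24), and Cxcl14 (1.49 ± 0.27). Cxcl14, a chemokine, was at 52.7, 82.9 and 63.4 CPM in WT and at 171, 155 and 235 CPM in KO libraries, so the lowest KO library was well above the highest WT library. None of these 5 passed in edgeR (adjusted p 0.147 to 0.355), and all 5 passed in DESeq2.

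On the lower side, the genes of smallest p with separate groups were led, after Sirt7 and Pcyt2, by Cldn12. Cldn12, a claudin of cell junctions, was at 74.7, 69.9 and 67.8 CPM in WT and at 48.5, 50 and 50.5 CPM in KO libraries, a log2 change of -0.51 ± 0.08 (edgeR adjusted p 0.147). Edn1, which encodes the vasoconstrictor peptide endothelin-1, was at 33.3, 23.6 and 30.4 CPM in WT and at 16.7, 14.9 and 11.7 CPM in KO libraries, a log2 change of -1.01 ± 0.22 (edgeR adjusted p 0.447). Tmcc3 (-0.74 ± 0.14), Pigw of GPI-anchor synthesis (-0.55 ± 0.12), Gtf2h1 of the TFIIH complex (-0.31 ± 0.07), Sms, the X-linked spermine synthase (-0.68 ± 0.15), Zcchc2 (-0.41 ± 0.09) and Surf2 (-0.38 ± 0.09) also had separate groups without passing in edgeR. All 8 passed in DESeq2.

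**Figure D3:**
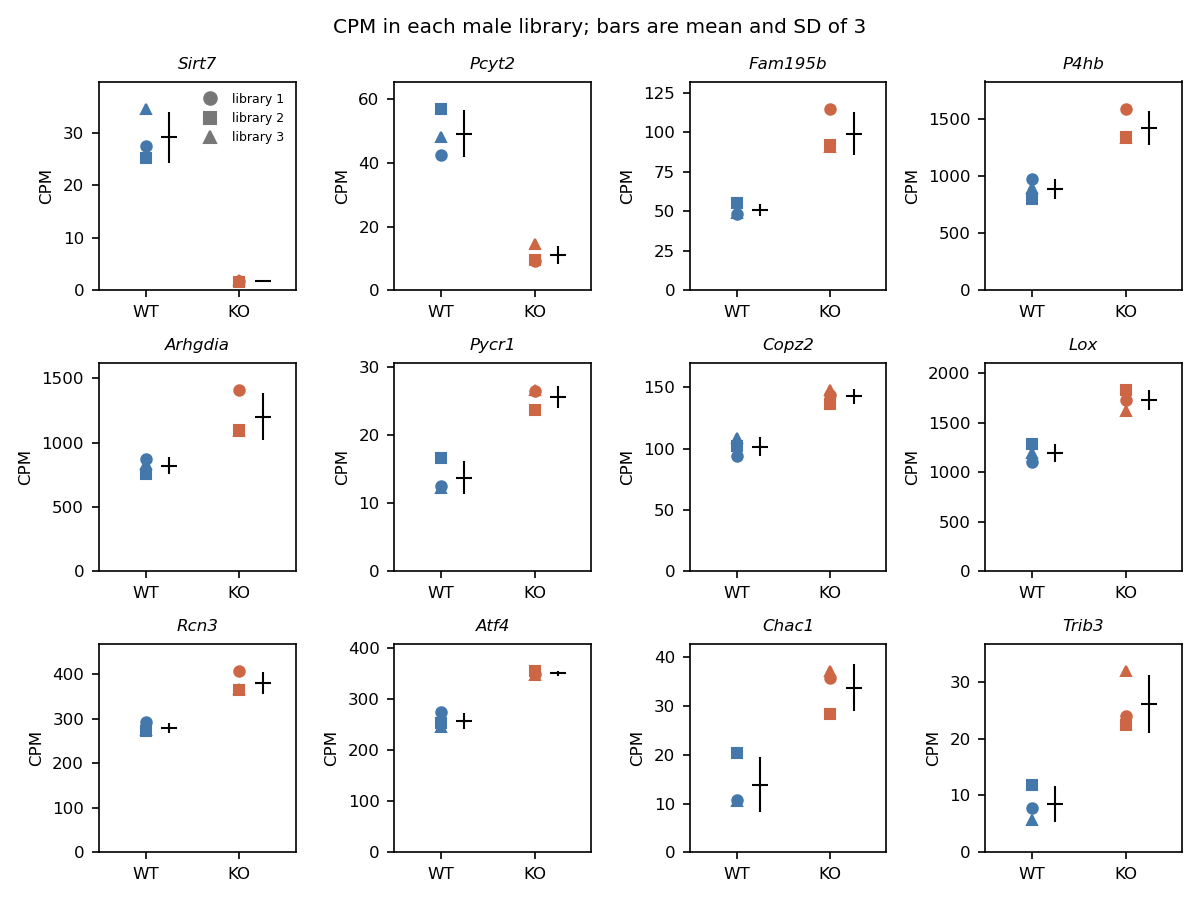
CPM of 12 genes in each male library, with WT in blue and KO in orange, symbols for libraries 1 to 3, and black bars for the mean and SD of 3. Every vertical axis starts at 0, and in all 12 panels the WT and KO libraries are separate, from the 16.4-fold difference of Sirt7 to the 1.36-fold difference of Rcn3. The 12 genes were picked after their values were seen, and 12.8% of all tested genes had separate groups.

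The female log2 changes of Copz2 and Rcn3 were near 0, at 0.004 and 0.03. In edgeR no gene passed the test of the difference between the male and female KO effects, with 868 genes at an unadjusted p below 0.05 (5.56%). DESeq2 called 3 genes in that test, Copz2 (adjusted p 0.00516), Rcn3 (0.0292) and Lmo4 (0.0292), a LIM-domain transcription regulator named here after its values were seen. Lmo4 was at 101, 102 and 93.6 CPM in WT and at 117, 120 and 117 CPM in KO libraries.

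The integrated stress response is the pathway in which ATF4, a transcription factor translated more when the initiation factor eIF2 is phosphorylated, raises genes of amino acid supply. Of 16 measured ATF4 targets and effectors, 14 had a log2 change above 0 (47.9% of all tested genes did), with a median of 0.44. In 4 of them all KO libraries exceeded all WT libraries (6.21% of all genes did), and those 4 passed in DESeq2 (0.789% of all genes were higher there). The median was 0.26 without WT library 1. None was called in edgeR.

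Atf4 mRNA was at 275, 254 and 245 CPM in WT and at 349, 356 and 348 CPM in KO libraries, a log2 change of 0.44 ± 0.11 (edgeR adjusted p 0.447, DESeq2 adjusted p 0.0382). Chac1, a glutathione-degrading enzyme, was at 10.8, 20.3 and 10.5 CPM in WT and at 35.8, 28.3 and 37.2 CPM in KO libraries, a log2 change of 1.29 ± 0.35. Trib3, a pseudokinase that feeds back on ATF4, was at 7.74, 11.9 and 5.66 CPM in WT and at 24.0, 22.3 and 31.9 CPM in KO libraries, a log2 change of 1.63 ± 0.47. In each of these the 3 KO libraries lay above all WT libraries, and only those of Atf4 had little spread among themselves. Atf5 was the fourth, with a log2 change of 0.86 ± 0.22, while Ddit3, which encodes CHOP, had 13.9, 22.7 and 21.4 CPM in WT against 21.3, 29.0 and 34.6 CPM in KO libraries, with overlap.

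Of 18 genes of amino acid synthesis and transport, 16 had a log2 change above 0 (47.9% of all tested genes did), with a median of 0.39. An unadjusted p below 0.05 in that direction was found for 9 in edgeR (4.82% of all genes). In 8 all KO libraries lay above all WT libraries (6.21% of all genes did). Slc6a9, a glycine transporter, was at 21.0, 25.5 and 19.3 CPM in WT and at 52.5, 41.9 and 47.4 CPM in KO libraries (log2 change 1.11 ± 0.24, DESeq2 adjusted p 0.00362). Aldh18a1, which acts before Pycr1 in proline synthesis, was at 146, 164 and 124 CPM in WT and at 200, 208 and 209 CPM in KO libraries (0.50 ± 0.14). Asns, asparagine synthetase, was at 129, 135 and 88.3 CPM in WT and at 218, 172 and 182 CPM in KO libraries (0.70 ± 0.22), and WT library 3 was the lowest of the 6. Pycr1, near Sirt7, is 1 of the 18.

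In 6 of 12 cytosolic tRNA synthetases all KO libraries lay above all WT libraries (6.21% of all genes did). A log2 change above 0 was found in 11 of them (47.9% of all tested genes), with a median of 0.20. The largest was that of Aars, the alanyl-tRNA synthetase, at 372, 355 and 329 CPM in WT and 468, 435 and 476 CPM in KO libraries (0.38 ± 0.12). Of 29 ER chaperones and degradation factors, the targets of the ATF6 and XBP1 arms of the unfolded protein response, 17 were above 0, with a median of 0.04. In 3 the KO libraries lay above all WT libraries, P4hb near Sirt7 among them, and in 2 below (6.21% and 6.56% of all genes did). In females the medians were 0.14 for the ATF4 list, -0.18 for amino acid genes, -0.12 for tRNA synthetases and -0.05 for ER chaperones.

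The 2 arms of the stress response act through different promoter elements, so the promoters were read for both. RefSeq promoter windows (GRCm38.p6, from 250 bases before to 50 after each start) were searched on both strands for the CARE sequence TGATGNAA, bound by ATF4 with a C/EBP partner. It was found in 2.44% of 15562 windows of all tested genes, in 6 of 19 windows of the ATF4 list (31.6%), in 4 of 19 of amino acid genes (21.1%), in 5 of 8 of tRNA synthetases (62.5%) and in 1 of 26 of ER chaperones (3.85%). Windows existed for 12243 of the 15613 tested genes, and the other genes were not searched. They existed for all 16 genes of the ATF4 list, 15 of 18 amino acid genes, 8 of 12 tRNA synthetases and 25 of 29 ER chaperones. A window for 1 gene can overlap another window of the same gene. In the ATF4 list the matches lay in windows of Chac1, Trib3, Vldlr, Fgf21, Nupr1 and Atf3. Of these only Chac1 and Trib3 had separate groups, while Atf4 and Atf5 had separate groups without a match. The matches describe letters and are not measurements of binding. The lists were drawn up from genes of the 2 stress response arms. Higher shares of an arm's element in its lists were thus likely from the outset and say nothing on the KO effect. The stretches that hold a match before the start of 5 genes are shown because these genes had values above WT in every KO library, with the match or its reverse complement in capitals.
Pycr1: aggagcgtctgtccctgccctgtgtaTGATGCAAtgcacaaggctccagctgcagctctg
Chac1: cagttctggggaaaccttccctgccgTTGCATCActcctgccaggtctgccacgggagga
Asns: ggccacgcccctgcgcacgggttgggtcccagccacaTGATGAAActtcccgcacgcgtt
Slc7a11: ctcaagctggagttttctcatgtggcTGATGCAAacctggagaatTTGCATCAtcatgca
Gars: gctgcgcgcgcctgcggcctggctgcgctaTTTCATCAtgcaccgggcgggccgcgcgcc

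These are 60 bases each, written 5′ to 3′ along the gene's strand. They lie at chr11:120643818-120643877 (Pycr1, minus strand), chr2:119351023-119351082 (Chac1, plus strand), chr6:7693210-7693269 (Asns, minus strand), chr3:50443646-50443705 (Slc7a11, minus strand) and chr6:55037941-55038000 (Gars, plus strand). The first match begins 103, 193, 23, 66 and 30 bases before the start in that order, and Slc7a11, the cystine transporter, has 2 matches in the stretch. Slc7a11 was at 6.42, 6.07 and 3.10 CPM in WT and at 12.5, 8.50 and 8.45 CPM in KO libraries (log2 change 0.92 ± 0.41), and Gars, the glycyl-tRNA synthetase, at 336, 285 and 294 CPM against 365, 348 and 351 CPM (0.22 ± 0.10). The Pycr1 match lies on the far side of that gene from Sirt7.

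The ER stress element, CCAAT followed after 9 bases by CCACG, was found in 0.141% of all windows and in 9 of 26 windows of ER chaperones (34.6%), and in none of the ATF4, amino acid or tRNA synthetase windows. It is shown for Hspa5 (BiP) and Hsp90b1 (GRP94), chosen as the best-known members after their values were seen. The genes shown for CARE were also chosen by their values, so the changes of these examples cannot be compared by element. Whether either element has a part in the changes was not tested.
Hspa5: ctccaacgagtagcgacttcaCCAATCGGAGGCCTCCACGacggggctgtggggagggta
Hsp90b1: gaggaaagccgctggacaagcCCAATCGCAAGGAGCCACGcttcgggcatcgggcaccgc

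They lie at chr2:34772004-34772063 (plus strand) and chr10:86705618-86705677 (minus strand). Hspa5 was at 889, 883 and 784 CPM in WT and at 873, 952 and 856 CPM in KO libraries, and Hsp90b1 at 1500, 1240 and 1260 CPM against 1390, 1450 and 1340 CPM. Both had overlapping groups and log2 changes of 0.07 ± 0.08 and 0.06 ± 0.09.

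Cholesterol synthesis genes had the highest median of the metabolic lists, and it rested on part of the KO libraries. Of 27 tested genes, of 28 listed, 26 had a log2 change above 0 (47.9% of all tested genes did), with a median of 0.68. An unadjusted p below 0.05 in that direction was found for 24 in edgeR (4.82% of all genes). That number was 7 without KO library 3, 12 without WT library 1 and 16 without KO library 2. It was 17 without WT library 3, 24 without WT library 2 and 26 without KO library 1. None was called in edgeR. KO libraries 2 and 3 each exceeded all WT libraries for 26 of the 27 genes, whereas KO library 1 did so for 12. Over all tested genes 19.5%, 20.1% and 25.9% lay above all WT libraries in KO libraries 1, 2 and 3.

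The enzymes of the squalene step show this pattern. Fdft1, squalene synthase, was at 144, 171 and 165 CPM in WT and at 175, 275 and 318 CPM in KO libraries (log2 change 0.68 ± 0.21). Sqle, squalene epoxidase, was at 174, 202 and 167 CPM in WT and at 227, 289 and 327 CPM in KO libraries (0.64 ± 0.17, DESeq2 adjusted p 0.049). In both, KO library 1 lay only slightly above WT library 2.

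The same order held for Srebf2, which encodes the transcription factor that drives the pathway. It was at 198, 217 and 189 CPM in WT and at 242, 275 and 317 CPM in KO libraries, without overlap (0.47 ± 0.13).

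Fatty acid genes under related control had a median log2 change of 0.53, which was 0.30 without KO library 3. Of the 12 genes, 10 were above 0 (47.9% of all tested genes were). In 4 all KO libraries lay above all WT libraries (6.21% of all genes did). Scd2, a stearoyl-CoA desaturase, was at 720, 701 and 687 CPM in WT and at 970, 1200 and 1410 CPM in KO libraries (0.76 ± 0.17, DESeq2 adjusted p 0.0137). Scd1 was at 248, 282 and 269 CPM in WT and at 336, 534 and 632 CPM in KO libraries (0.91 ± 0.23, DESeq2 adjusted p 0.0227). KO library 3 was again the highest for both. Of 8 genes of sterol efflux and LXR control 7 were above 0, with a median of 0.43 (0.24 without WT library 1). In females the medians of the cholesterol, fatty acid and efflux lists were 0.08, 0.08 and 0.03.

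A sterol regulatory element written TCACNCCAC was found in 1.21% of all windows and in 1 of 23 windows of cholesterol genes, that of Hmgcs1, the HMG-CoA synthase (chr13:119690188-119690247, plus strand, first match 137 bases before the start). Windows existed for 19 of the 27 tested cholesterol genes. The Hmgcs1 stretch is printed because the single exact match falls in a gene of the pathway's first steps.
Hmgcs1: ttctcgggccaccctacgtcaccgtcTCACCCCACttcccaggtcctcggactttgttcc

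Hmgcs1 was at 264, 358 and 266 CPM in WT and at 350, 530 and 613 CPM in KO libraries, where KO library 1 lay below WT library 2 (log2 change 0.75 ± 0.25). It is named for its promoter, after its values were seen.

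Markers of steroid-producing cells were also highest in KO libraries 2 and 3. Of 15 such markers 12 were tested, and 10 of the 12 had a log2 change above 0 (47.9% of all tested genes did), with a median of 1.93. Their summed level was 132 to 148 CPM in WT and 149, 169 and 247 CPM in KO libraries 1, 2 and 3. Star, which brings cholesterol into mitochondria, was at 1.63, 1.89 and 1.39 CPM in WT and at 2.48, 4.36 and 14.8 CPM in KO libraries, and Cyp11a1, which cuts its side chain, at 1.72, 3.31 and 1.57 CPM against 4.70, 10.3 and 30.8 CPM. Nr5a1, the transcription factor that defines such cells, had 0.0898 to 0.838 CPM in WT and 0.935 to 2.75 CPM in KO libraries, and Cyp11b2, Cyp21a1 and Insl3 had at most 6 counts in any male library. The part of such cells in the lipid gene values was not tested. Without KO library 3 the cholesterol median was 0.50 and the steroidogenic median 1.10.

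**Figure D4:**
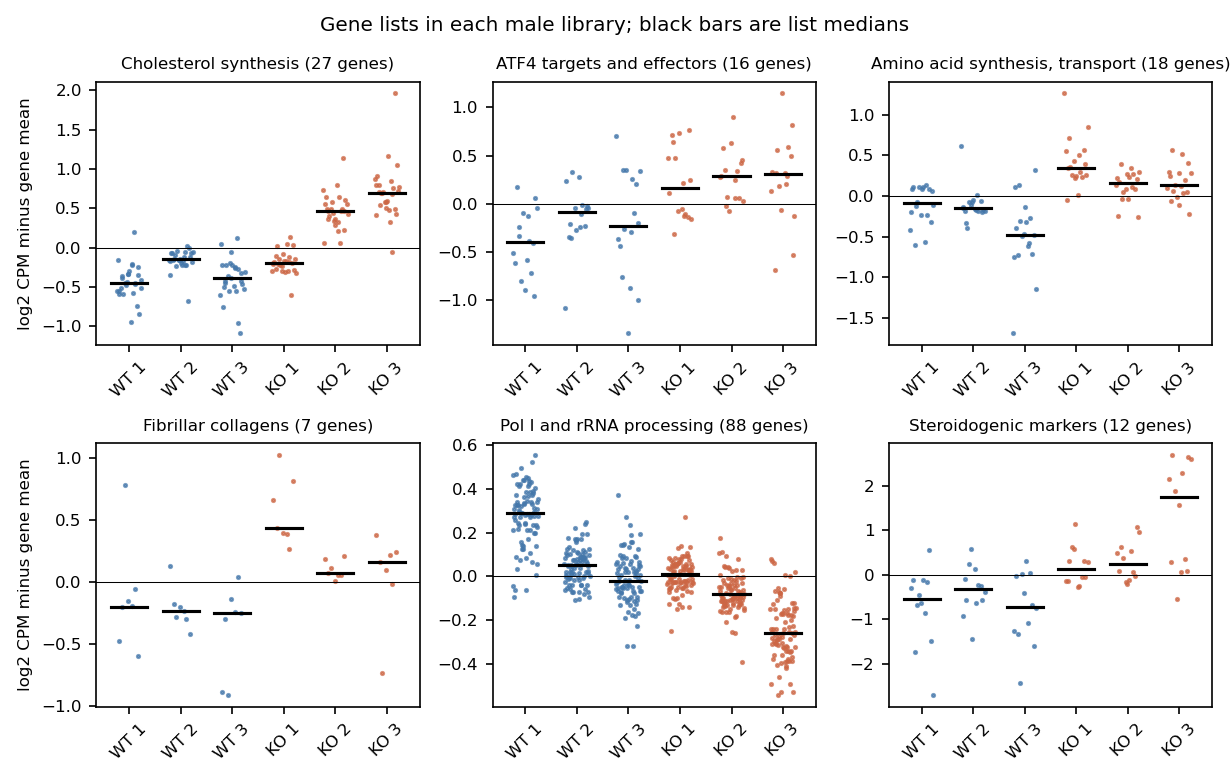
Each dot is a gene's log2 CPM in 1 male library minus its mean over the 6, for 6 gene lists, and black bars are list medians. The cholesterol medians are -0.45, -0.15 and -0.38 in WT libraries and -0.20, 0.47 and 0.69 in KO libraries, the fibrillar collagen median is highest in KO library 1 (0.44), and the polymerase I median is highest in WT library 1 (0.29) and lowest in KO library 3 (-0.26).

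Extracellular matrix genes leaned toward higher values in KO, most of all in KO library 1. Of 86 tested, 73 had a log2 change above 0 (47.9% of all tested genes did), with a median of 0.24. In edgeR 25 had an unadjusted p below 0.05 in that direction (4.82% of all genes did) and 1 in the other. In DESeq2 8 passed as higher (0.789% of all genes did). Without KO library 1 the unadjusted counts were 16 and 3. KO library 1 exceeded all WT libraries for 60 of the 86, KO library 2 for 30 and KO library 3 for 36.

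All 7 fibrillar collagens were above 0 (47.9% of all tested genes were), with a median of 0.45. In 5 all KO libraries lay above all WT libraries (6.21% of all genes did). Col1a1, the main chain of type I collagen, was at 2940, 2980 and 2750 CPM in WT and at 4580, 3560 and 3770 CPM in KO libraries (log2 change 0.46 ± 0.11, DESeq2 adjusted p 0.018). Col1a2, its partner chain, was at 2560, 2500 and 2480 CPM against 3850, 3060 and 3410 CPM (0.45 ± 0.11). Col11a1 was at 187, 212 and 238 CPM in WT and at 498, 328 and 335 CPM in KO libraries (0.87 ± 0.22). The type I chains and Col3a1 are also 3 of the 10 fibroblast markers, so these lists are not independent.

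Among 23 enzymes that modify or crosslink collagen, 19 were above 0 (47.9% of all tested genes were). In 8 all KO libraries lay above all WT libraries (6.21% of all genes did). Pcolce, which aids removal of the procollagen C-propeptide, was at 440, 439 and 492 CPM in WT and at 583, 565 and 589 CPM in KO libraries (0.34 ± 0.07, DESeq2 adjusted p 0.00113). Here the KO libraries differed little from each other, as with Lox. The female median was -0.03 for all matrix genes and -0.08 for the fibrillar collagens.

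Chondrocyte markers were also highest in KO library 1. All 8 were tested and 7 were above 0 (47.9% of all tested genes were). Their summed levels were 122 to 225 CPM in WT and 480, 172 and 149 CPM in KO libraries 1, 2 and 3. Hapln1, a cartilage link protein, was at 31.8 CPM in KO library 1 and at 6.22 to 10.6 CPM in the other 5 male libraries. Of 6 osteoblast markers 5 were tested, with a sum of 75.8 to 108 CPM in WT and 88.2 to 107 CPM in KO libraries, and Bglap had at most 6 counts. All 5 had a log2 change above 0, with a median of 0.65. The library medians of these 5 were -0.24, 0.15 and -0.41 in WT and 1.42, -0.13 and -0.48 in KO libraries, so KO library 1 stood above the rest. The part of these cells in the matrix values was not tested. Without KO library 1 the median was 0.17 for matrix genes and 0.34 for fibrillar collagens.

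The list for COPI and COPII, the vesicle coats that carry collagen and other cargo between ER and Golgi, had 27 of 30 genes above 0. Of all tested genes 47.9% were above 0, and the median of the list was small, at 0.11. The list also holds Kdelr3, a receptor that returns ER proteins and is not itself a coat subunit. Besides Copz2, Kdelr3 was at 140, 140 and 138 CPM in WT and at 159, 169 and 183 CPM in KO libraries (log2 change 0.29 ± 0.07, DESeq2 adjusted p 0.0262). The other genes of the list lay between -0.10 and 0.21.

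Genes of RNA polymerase I and of rRNA processing leaned the other way. Of 88 tested, 82 had a log2 change below 0 (52.1% of all genes did), with a median of -0.21, and 28 had an unadjusted p below 0.05 in that direction (5.14% of all genes did). That number was 4 without WT library 1, 5 without KO library 3, 18 without KO library 2 and 43 without WT library 3. In 23 all KO libraries were below all WT libraries (6.56% of all genes were). None was called in edgeR or in DESeq2.

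Rrn3, the initiation factor TIF-IA of polymerase I, was at 139, 115 and 120 CPM in WT and at 106, 105 and 99.4 CPM in KO libraries (log2 change -0.27 ± 0.08, edgeR adjusted p 0.457). Rrp9, a protein of the U3 small nucleolar particle, was at 79.9, 61.6 and 66.7 CPM in WT and at 56.4, 48.9 and 44.0 CPM in KO libraries (-0.48 ± 0.13). WT library 1 was the highest of the 6 for both. The female median of the list was -0.25.

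The list's spread within a genotype was as large as the difference between genotypes. Library medians were 0.29, 0.05 and -0.02 in WT and 0.01, -0.08 and -0.26 in KO libraries, so that KO library 1 lay above WT library 3. Without WT library 1 the median log2 change was -0.11. Rn45s, the 45S precursor rRNA itself, was at 8.86, 8.42 and 11.1 CPM in WT and at 5.99, 5.36 and 4.89 CPM in KO libraries, with separate groups (-0.81 ± 0.20, edgeR adjusted p 0.447, DESeq2 adjusted p 0.018). The female log2 change of Rn45s was -0.01 ± 0.19. The difference between its male and female changes had an unadjusted p of 0.0149 and an adjusted p of 0.778 in edgeR. Rn45s was named after its values were seen. The gene has many copies and its RNA is not polyadenylated, so in polyA-selected libraries this value is uncertain as a measure of ribosomal transcription.

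Single libraries set many other differences. The first principal component of the 6 male libraries held 39.6% of the variance and placed WT library 3 at 52.6, against -26.3 to 2.7 for the rest. The second held 36.6% and ran from WT library 1 at 43.0 to KO library 3 at -36.5. In WT library 3, 69 genes were more than 1 log2 unit above the nearest of the other 5 libraries and 175 that far below. In WT library 1 the numbers were 25 and 77, and the remaining libraries had at most 22 above and 24 below.

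Skeletal muscle markers divided the libraries without regard to genotype. Myod1, the muscle-determining transcription factor, was at 7.48, 5.2 and 0.0898 CPM in WT and at 4.83, 0.089 and 0.0475 CPM in KO libraries. Myog, which acts after it, was at 20.5, 15.8 and 0.314 CPM in WT and at 12.7, 0.356 and 0.546 CPM in KO libraries. Each genotype thus held libraries with and without these RNAs. Of 12 such markers 11 were tested, the sum was 228 to 596 CPM in WT and 151 to 502 CPM in KO libraries, and the median of -0.79 turned to 0.03 without WT library 1.

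Growth and interferon genes likewise followed libraries. Of 58 S phase genes 54 were below 0 (52.1% of all tested genes were), with a median of -0.15. Their library medians were 0.28, 0.28 and -0.36 in WT and 0.07, -0.01 and -0.26 in KO libraries. The G2 and mitosis genes (median 0.02), the p53 targets (-0.13) and the interferon genes (0.15) changed sign without WT library 3, to -0.14, 0.06 and -0.02. No direction is given for those 3 lists. The S phase median ran from -0.32 without WT library 3 to -0.03 without WT library 2, and the number of its genes lower at an unadjusted p below 0.05 was 3 with all libraries, 22 without WT library 3 and 1 without WT library 2.

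Leaving out each male library in turn tested the 3 called genes. Sirt7 passed in all 6 fits, with log2 changes of -4.12 to -3.89. Fam195b passed in 3, with log2 changes of 0.85 to 1.04 and a highest adjusted p of 0.112 in edgeR, reached without WT library 1. Pcyt2 passed in 1, that without KO library 3, with log2 changes of -2.38 to -2.02 and a highest adjusted p of 0.175, reached without KO library 2. The log2 changes of Fam195b and Pcyt2 moved little, while their calls depended on which libraries were kept.

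**Figure D5:**
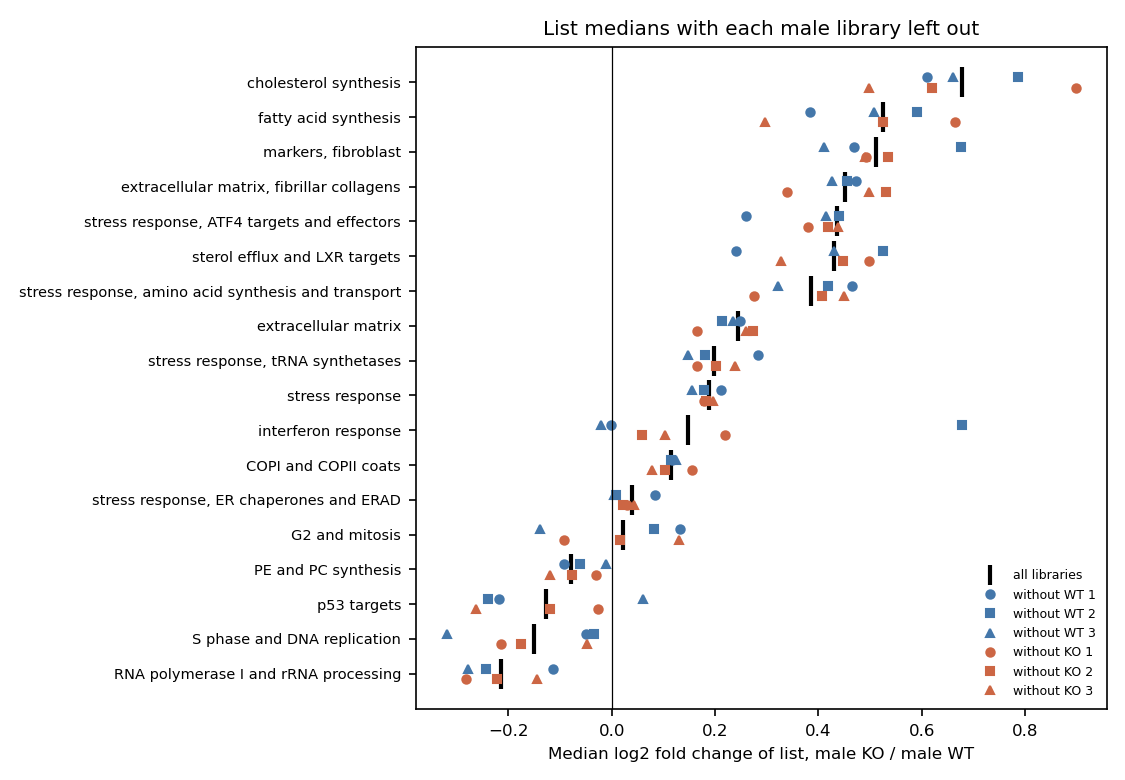
Median log2 fold change (male KO over male WT) of 18 gene lists, with all libraries as a black bar and with each male library left out as a coloured symbol. The cholesterol median stays between 0.50 and 0.90 and the polymerase I median between -0.28 and -0.11, while the G2 and mitosis, p53 target and interferon medians cross 0.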

How the data were processed

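The authors deposited 1 table of raw counts, with a column per library and 24421 genes. The submitters' processing notes list DESeq2 1.32.0, StringTie 1.3.3, SAMtools 0.1.19, HISAT2 2.1.0, Trimmomatic 0.36 and FastQC 0.11.3, and the builds GRCm38 and mm10. The sources used here do not say how strand and multiply mapped reads were handled in counting. Near-identical copies and genes overlapping on opposite strands are therefore uncertain. In the male libraries, 80.9% to 89.7% of counts between 2 and 19 were even. Mates of a pair may thus have been counted as 2, in which case counting error exceeds what the counts imply.

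From these counts, genes were filtered with filterByExpr (15613 kept), scaled by TMM and fitted by edgeR 4.0.16 (limma 3.58.1, R 4.3.3) as 1 robust quasi-likelihood model of 4 group means over all 12 libraries, with 8 residual degrees of freedom. The male KO against WT contrast and its difference from the female one were tested with glmQLFTest, two-sided, with Benjamini-Hochberg adjustment over all tested genes and a threshold of 0.05. CPM values use TMM-scaled totals. SE values come from the same fit. The script was tested on simulated data. Within a male group, pairs of libraries had a chi-square per degree of freedom of 20.9 to 115, so none was a copy of another.

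Alternatives were DESeq2 size factors, no filter, the 6 male libraries alone, a replicate block, each male library left out, a minimum fold of 1.2 (glmTreat), DESeq2 1.42.0, in which 2426 genes had no adjusted p, and limma voom with quality weights. Genes are named if they are Sirt7, lie within 150 kb of it or are called, or are among the 10 of smallest p in each direction with a mean of at least 1 CPM and separate groups. For each gene list up to 6 members of smallest p are named, and any member of a list of 20 or fewer. The members and lists were chosen with earlier results of these data known. Gene positions come from GENCODE (23944 genes matched, 98.0%) and promoter sequences from RefSeq. The separate groups are those in which all 3 KO libraries lie beyond all 3 WT libraries.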

Additional observations from a re-analysis of the deposited data

How the results depend on the processing

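The number of genes called between male KO and WT was 3, and 1 (Sirt7) in the 6 male libraries alone, 136 with DESeq2, 6 with limma voom and quality weights (Copz2, Lox and P4hb added) and 1 without WT library 3 and female KO library 1, a pair chosen after seeing the data. In limma voom KO library 2 had a quality weight of 3.85, against 0.594 and 0.954 for KO libraries 1 and 3. The WT libraries had weights of 0.385 to 0.829, so the KO side of that fit rested mostly on KO library 2. Leaving out each male library gave 1 to 4 genes. Only Sirt7 remained without WT library 1, WT library 3 or KO library 2. With the replicate block 1 gene was called (Sirt7). To look for pairing, each library's log2 CPM was taken as its deviation from the mean of its group. The correlations of these deviations between same-numbered KO and WT libraries were 0.345, -0.055 and 0.299. Those between differently numbered libraries ran from -0.409 to 0.218. Within a group the deviations cancel out, so these values are not independent of each other. KO libraries 1 and 3 each had their highest value with the WT library of the same number, and KO library 2 did not. Whether the numbers pair the samples cannot be told from these values. The test of the male minus female effect called 0 genes in edgeR and 3 in DESeq2. Reversed values were Anapc11 at -0.017 in limma voom and, without each male library, -0.039 (KO library 1) to 0.13, G2 and mitosis at -0.14 (without WT library 3) to 0.13, negative also without KO library 1 (-0.09), p53 targets at -0.26 to 0.060 (without WT library 3), interferon genes at -0.021 (without WT library 3) to 0.68, negative also without WT library 1 (-3e-04), and skeletal muscle markers at -3.84 to 0.031 (without WT library 1). Medians that moved without reversing were fatty acid genes at 0.30 without KO library 3, phosphatidylethanolamine and phosphatidylcholine synthesis at -0.010 without WT library 3, ATF4 targets at 0.26 without WT library 1, interferon genes (0.68) without WT library 2, steroidogenic markers at 1.10 without KO library 3 and skeletal muscle markers without KO library 1. The cause of these shifts was not tested. For genes below 1 CPM, depth limits what can be seen.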
